A study of Rattus norvegicus with 9 samples.

Results

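Uchl1, Slc17a6, Syt1, Negr1, Scn7a, Dclk3, Ephb1, S100b and Mog are 9 genes known chiefly from neurons and glia, and their mRNA was followed in rat bone marrow mesenchymal stem cells (MSCs) and in the neural progenitor-like cells (NPCs) induced from them. They were taken by the Ensembl gene ID that the tables of the study pair with each symbol, and they are 9 of 26249 genes and transcript units in the files. The level of a gene is the sum of the FPKM of its isoforms (fragments counted per kilobase of transcript and per unit of mapped fragments in a library), so that genes of different length can be set side by side. All 9 are in the files with 1 annotated transcript each. Slc17a6, Syt1, Negr1, Scn7a, Dclk3 and Ephb1 had been named through the study's table of genes changed between NPCs and MSCs, so the direction of these 6 against MSCs is not independent evidence. Uchl1, S100b and Mog were named through an expression table sorted by gene ID, which does not choose genes by their change. All 9 were nonetheless chosen with earlier results of these data known, so the direction of Uchl1, S100b and Mog is not independent evidence either.

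The cells came from the bone marrow of 3 Sprague-Dawley rats aged 4 weeks and were used at passage 3, with 3 libraries for each of 3 groups. MSCs were kept without induction. NPCs were held for 3 days in ultra-low attachment plates in NeuroCult NS-A medium with EGF and bFGF at 20 ng/ml each, and the IGF-1 NPCs received IGF-1 beside both factors, at a dose that the sources used here leave out. No library of cells moved to that medium and to suspension without growth factors was analysed here, so effects of the factors, the medium and the loss of attachment cannot be told apart, and the labels tie no library to a rat. The study's methods call the 3 rats biological replicates for MSCs and NPCs and do not cover the IGF-1 NPCs, so p-values measure the spread between libraries. The confidence bounds that the files give with each FPKM implied a depth of 37.5 to 49.1 M reads per library. In bulk RNA, fewer cells of a type cannot be told apart from less RNA per cell. Of the mesenchymal markers only vimentin (Vim) could be matched by name, at a mean of 2730 FPKM in MSCs, 766 in NPCs and 752 in IGF-1 NPCs. Vim had been named through the table of changed genes, so its direction is not independent evidence. Of 8 neural progenitor markers 4 could be matched by name. Nes (nestin) was at 0.117, 0.305 and 0.294 FPKM in the order MSCs, NPCs and IGF-1 NPCs. Every induced library (0.268 to 0.331) lay above every MSC library (0.0534 to 0.152). Its log2 fold changes over MSCs, 0.90 and 0.85 (limma adjusted p = 0.0408 and 0.024), missed only the fold threshold of 1. Nes too had been named through the table of changed genes. Msi1 was at 0.452, 0.371 and 0.531 FPKM and did not pass (−0.30 and 0.11). Prom1 (CD133) fell from 0.592 to 0.0203 and 0.0136, and Fabp7 was listed at 0 in all 9 libraries.

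Neurons release transmitter when calcium binds synaptotagmins such as Syt1 on vesicles that transporters such as Slc17a6 (VGLUT2) have filled with glutamate. Neuronal and glial surfaces carry adhesion proteins and guidance receptors, among them Negr1 of the IgLON family and Ephb1, a receptor of ephrin-B ligands, while Scn7a is a sodium channel that responds to the sodium level and Dclk3 a kinase of the doublecortin-like family. Uchl1 (PGP9.5) is a ubiquitin hydrolase abundant in neurons, S100b a calcium-binding protein of astrocytes and Schwann cells that chondrocytes and adipocytes also make, and Mog a surface protein of the myelin of oligodendrocytes.

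The stretch before the start site is shown for 2 of the genes that were lower in both induced groups and 2 that were higher, to set their promoters beside each other. Each run is the 250 bases upstream of the RefSeq start (assembly GRCr8), 5′ to 3′ on the strand of the gene, with capitals for matches on either strand to the TATA box TATAAA, the box CCAAT, the GC box core GGGCGG, the cAMP response element TGACGTCA or the AP-1 site TGANTCA. The places are chr14:41849418-41849667 on the minus strand for Uchl1, chr2:248283226-248283475 on the plus strand for Negr1, chr8:120279666-120279915 on the plus strand for Dclk3 and chr8:111823760-111824009 on the minus strand for Ephb1.
Uchl1: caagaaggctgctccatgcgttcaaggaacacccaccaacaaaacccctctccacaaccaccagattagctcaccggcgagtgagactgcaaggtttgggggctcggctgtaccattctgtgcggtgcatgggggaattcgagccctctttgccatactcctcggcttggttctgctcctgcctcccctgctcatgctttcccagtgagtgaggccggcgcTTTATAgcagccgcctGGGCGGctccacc
Negr1: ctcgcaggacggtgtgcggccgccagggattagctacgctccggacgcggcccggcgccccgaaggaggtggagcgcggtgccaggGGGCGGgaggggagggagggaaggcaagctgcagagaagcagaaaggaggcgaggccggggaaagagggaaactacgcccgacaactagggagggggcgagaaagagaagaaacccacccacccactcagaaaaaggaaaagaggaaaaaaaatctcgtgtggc
Dclk3: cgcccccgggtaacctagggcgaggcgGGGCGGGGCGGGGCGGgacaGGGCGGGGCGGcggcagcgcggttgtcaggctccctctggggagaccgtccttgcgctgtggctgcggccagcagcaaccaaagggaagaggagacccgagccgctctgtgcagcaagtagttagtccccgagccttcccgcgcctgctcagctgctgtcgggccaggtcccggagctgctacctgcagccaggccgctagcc
Ephb1: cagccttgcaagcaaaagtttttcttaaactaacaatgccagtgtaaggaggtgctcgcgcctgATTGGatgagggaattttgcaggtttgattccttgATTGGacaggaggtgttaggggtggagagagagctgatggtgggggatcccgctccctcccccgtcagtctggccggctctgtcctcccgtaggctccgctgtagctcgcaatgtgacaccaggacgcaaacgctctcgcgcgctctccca
GGGCGG was in the promoter of 5 of the 8 members with an entry (Uchl1, Syt1, Negr1, Scn7a and Dclk3), against 30.5% of 33469 rat promoters. Dclk3 held 5 matches, some sharing a letter, and Syt1 held 3. CCAAT was in 2 of the 8, Ephb1 with 2 matches and S100b with 3, against 34.0% of promoters. TATAAA was in Uchl1 alone, where it lay on the other strand, against 12.9% of promoters, and neither TGACGTCA (1.59%) nor TGANTCA (6.34%) was in any of the 8. Dclk3 and Negr1 had the most CG dinucleotides of the 8, with 23 and 20 against a median of 5 over all promoters, and Scn7a the fewest, with 2. The 3 genes called lower in induced cells were all above that median, with 9 to 20, and so were Dclk3 and Ephb1 of the 3 called higher. Mog had no entry.

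Induced cells held less Uchl1, Slc17a6 and Negr1 mRNA than MSCs, and more Scn7a, Dclk3 and Ephb1, while S100b stayed at a high level and Mog at a low one in all groups. Between NPCs and MSCs 3 of the 9 were called higher and 3 lower with limma, where a call needs an adjusted p no higher than 0.05 together with a change of 1 or more on the log2 scale. Over all 13696 genes tested 21.6% were called, 11.7% higher and 9.89% lower, and nothing is read from the members' count, since 6 of them had been named for this contrast. The libraries of NPCs and MSCs did not overlap for 7 of the 9, 3 higher and 4 lower, against 49.8% of genes (27.5% higher and 22.3% lower). Between IGF-1 NPCs and MSCs the same 6 were called, against 21.4% of 14228 genes (11.7% higher and 9.74% lower). Here the libraries did not overlap for all 9, 4 higher and 5 lower, against 54.4% of genes (31.1% higher and 23.3% lower). Both comparisons use the same MSC libraries. For the same reason nothing is read from the members' counts of calls or of libraries without overlap in either comparison. Between IGF-1 NPCs and NPCs none of the 9 was called by limma and none had an unadjusted p under 0.05, against 0.0211% of genes called (3 genes, 0.0141% higher and 0.00703% lower) and 661 genes (4.65%) with an unadjusted p under 0.05. Slc17a6, Negr1 and Syt1 passed the minimum of 0.1 FPKM in 3 libraries through MSCs, and Scn7a, Dclk3 and Ephb1 through the induced cells, so that a difference was built into their being tested. The fold changes are on the scale of log2(FPKM + 0.1), which shrinks those of genes near 0.1 FPKM. With 3 libraries against 3 an exact permutation test of a single gene cannot go under p = 0.1, so the tests are those of the fit across all genes. The median log2 fold change over all genes was 0.03 for NPCs and 0.05 for IGF-1 NPCs over MSCs.

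**Figure D1:**
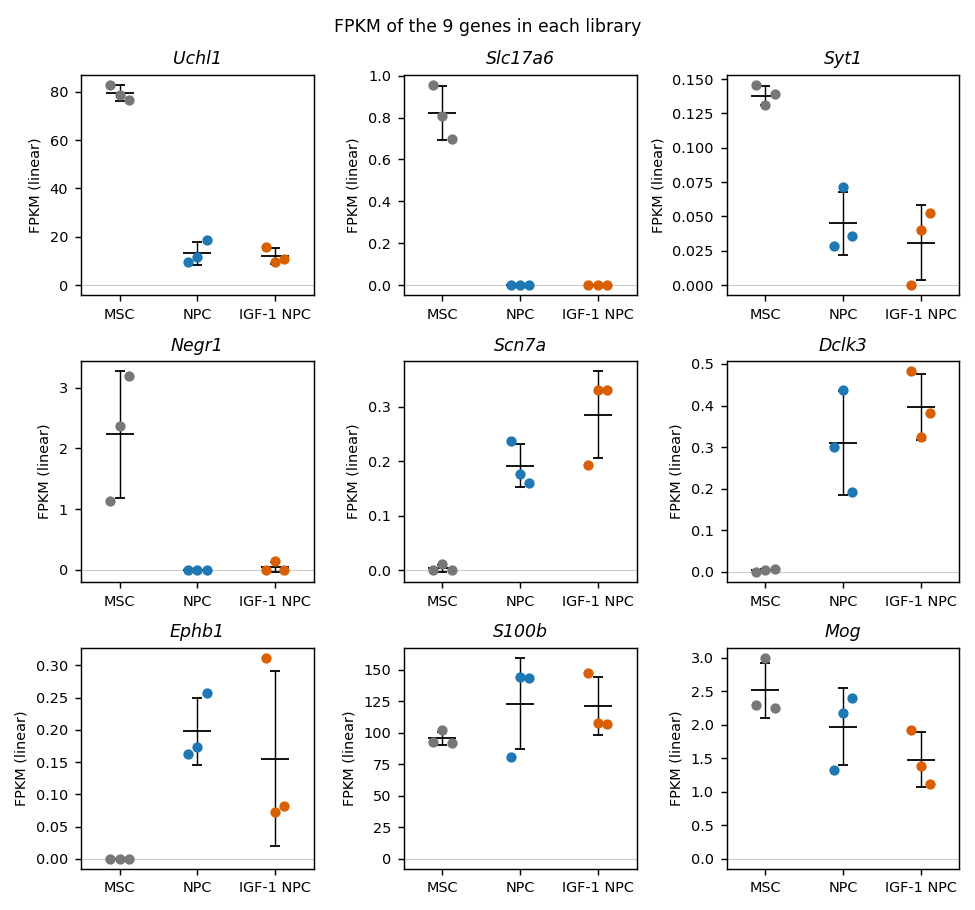
FPKM (linear axis) of the 9 genes in the 3 libraries of each group, 1 point per library, with a long bar for the mean and whiskers for the SD (n = 3). Uchl1, Slc17a6, Syt1 and Negr1 lie higher in every MSC library than in every induced library, Scn7a, Dclk3 and Ephb1 lower, and the NPC and MSC libraries overlap for S100b and Mog.

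Slc17a6 (ENSRNOG00000016147, chromosome 1, 108040511 to 108080510, plus strand, 12 exons) was read in MSCs at 0.958, 0.81 and 0.697 FPKM, while all 3 NPC and all 3 IGF-1 NPC libraries listed it at 0. The transporter was thus found only in the libraries of uninduced cells, with an implied 121 to 158 reads in each. At the implied depth, 3 reads would correspond to 0.0162 to 0.0201 FPKM in the induced libraries, counting error only. The log2 fold changes of −3.22 (SE 0.24, limma adjusted p = 0.000125) and −3.25 (adjusted p = 9.79e-06) depend on the added 0.1 and are no bound. With 1 added in place of 0.1 they were −0.88 and −0.89, under the fold threshold. Of the genes tested, 32 (0.234%) were likewise listed at 0 in all NPC libraries and at 0.1 FPKM or more in all MSC libraries, and 29 (0.204%) for IGF-1 NPCs. In MSC library 1, 33.0% of the FPKM of Slc17a6 came from an unannotated isoform of 9 exons.

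Syt1 (ENSRNOG00000006426, chromosome 7, 50097034 to 50650569, minus strand, 11 exons) was at 0.146, 0.131 and 0.139 FPKM in MSCs and at 0.0282, 0.0712 and 0.036 in NPCs. IGF-1 NPC library 1 was listed at 0 and the other two held 0.04 and 0.0525. The induced libraries lay below every MSC library. The reads behind these values were few, an implied 11 or 12 in each MSC library and at most 5 in an induced one. The log2 fold change of −0.76 in NPCs did not pass (SE 0.26, limma adjusted p = 0.0556). IGF-1 NPCs had −0.93 (SE 0.26, limma adjusted p = 0.0204), short of the fold threshold. It was past that threshold with 0.01 added (−2.30), with quantile normalisation (−1.22), without IGF-1 NPC library 3 (−1.05) and with intronic single-exon transcripts added (−1.27). In NPCs against MSCs it was called with the intronic transcripts (−1.12, limma adjusted p = 0.0122), and with 0.01 added it was past the fold threshold but not called (−1.56, limma adjusted p = 0.0635). None of the intronic transcripts was counted to Syt1, so that setting reached it only through the scaling and the fit.

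Other genes of the synaptic vesicle moved in both directions. Of 27 genes on that list, 6 besides Syt1 could be matched by name and 5 tested, and 1 rose and 2 fell in NPCs against MSCs, with a median log2 fold change of 0.34, while 2 rose and 2 fell in IGF-1 NPCs, with a median of 1.15. Sv2c, a vesicle glycoprotein, fell from a mean of 5.95 FPKM in MSCs to 0.773 in NPCs and 0.731 in IGF-1 NPCs (log2 fold changes −2.88 and −2.92). Syt5, a further synaptotagmin, fell from 1.59 to 0.247 and 0.295 FPKM (−2.32 and −2.12). Syt7, a calcium sensor of slow vesicle release, rose from 0.0431 to 0.322 and 0.326 FPKM (1.53 and 1.52). Vamp1, the vesicle SNARE synaptobrevin 1, was at 2.11 FPKM in MSCs and 4.84 in NPCs, a log2 fold change of 0.90 that did not pass, and rose in IGF-1 NPCs (6.85 FPKM, 1.5). The other tested gene passed in neither comparison. The 5 tested genes had all been named through the table of changed genes. Of the transmitter list, the enzyme Gad1 and the serotonin transporter Slc6a4 were the only others matched, and both lay at group means of at most 0.081 FPKM and were not tested.

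Negr1 (ENSRNOG00000021410, chromosome 2, 281883336 to 282071757, plus strand) was at 1.13, 2.37 and 3.2 FPKM in MSCs, listed at 0 in all 3 NPC libraries, and at 0.147 in IGF-1 NPC library 2 with the other two listed at 0. Every MSC library lay above every induced library. The value of 0.147 rests on an implied 3 reads, against 23 to 68 in an MSC library. Taken from the confidence bounds of each value alone, the MSC libraries had fewer, 15, 36 and 42 reads. The annotated transcript in the files has 3 exons and 490 bases over a span of 188422 bases, and the MSC libraries spread widely around their mean (2.23 ± 1.04 FPKM, SD, n = 3). The log2 fold changes were −4.46 (SE 0.41, limma adjusted p = 0.000293) in NPCs and −4.06 (SE 0.47, adjusted p = 0.000195) in IGF-1 NPCs, both dependent on the added 0.1.

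The other adhesion genes that could be matched lay low. Ncam2 was listed at 0 in all 9 libraries. Nrxn3 and Nlgn1, a presynaptic neurexin and a postsynaptic neuroligin, were at means of 0.0963 and 0.123 FPKM in MSCs and at most 0.0296 in the induced groups, and were not tested. Both had been named through the table of changed genes. Nlgn3, a further neuroligin, was at 0.281 FPKM in MSCs, 0.551 in NPCs and 0.572 in IGF-1 NPCs and did not pass (log2 fold changes 0.70 and 0.75).

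Ephb1 (ENSRNOG00000007865, chromosome 8, 109782848 to 110218328, minus strand, 16 exons) was listed at 0 in the 3 MSC libraries and at 0.162, 0.174 and 0.257 FPKM in NPCs. In IGF-1 NPCs it was at 0.311, 0.0718 and 0.0818 FPKM. All induced libraries held reads of the receptor, an implied 14 to 67 in each, with library 1 of IGF-1 NPCs far above the other two. The log2 fold change was 1.54 in NPCs (SE 0.27, limma adjusted p = 0.00445) and 1.21 in IGF-1 NPCs (SE 0.36, adjusted p = 0.0241). The call in IGF-1 NPCs ended without their library 1 (0.81, limma adjusted p = 0.0603) and without MSC library 1, 2 or 3 (1.21, 1.21 and 1.23, adjusted p = 0.0631, 0.0615 and 0.0577). Of the genes tested, 47 (0.343%) were listed at 0 in all MSC libraries and at 0.1 FPKM or more in all NPC libraries. The other Eph genes that could be matched went the opposite way. Ephb2 fell from 0.786 FPKM in MSCs to 0.0653 and 0.144 (−2.50 and −1.95), Epha7 from 0.177 to 0.0173 and 0.0156 (−1.27 and −1.30), and the ligand Efnb2 from 5.64 to 1.74 and 2.42 (−1.73 and −1.26). Ephb6 fell in NPCs, from 0.332 to 0.11 FPKM (−1.08), and did not pass in IGF-1 NPCs (0.127 FPKM, −0.99). These 4 of the 22 genes on the list had been named through the table of changed genes.

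**Figure D2:**
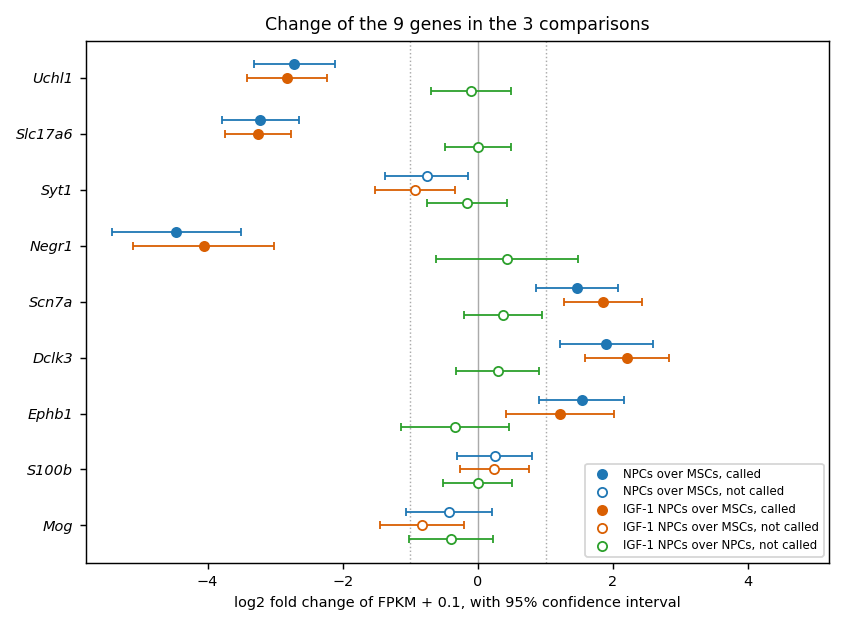
Log2 fold change of FPKM + 0.1 for the 9 genes in each comparison, with 95% confidence intervals from limma. Filled points were called and open points were not, and dotted lines mark the fold threshold of 1. The 2 comparisons with MSCs share their MSC libraries, and all 9 intervals for IGF-1 NPCs over NPCs include 0.

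Scn7a (ENSRNOG00000029342, chromosome 3, 59396876 to 59469569, minus strand, 26 exons) was listed at 0 in MSC libraries 1 and 3 and at 0.0111 FPKM in library 2, an implied 3 reads. It was at 0.237, 0.177 and 0.161 FPKM in NPCs and at 0.193, 0.33 and 0.331 in IGF-1 NPCs. The channel was above the MSC level in all 6 induced libraries, and 2 of the IGF-1 NPC libraries lay above every NPC library. The log2 fold changes were 1.46 (SE 0.26, limma adjusted p = 0.00473) and 1.85 (SE 0.26, adjusted p = 0.000559). Scn4b, a beta subunit of sodium channels and the only other gene of 14 on that list to be matched, rose from 0.0073 FPKM to 0.214 and 0.19 (1.52 and 1.41). It too had been named through the table of changed genes.

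Dclk3 (ENSRNOG00000033026, chromosome 8, 119040830 to 119093605, plus strand, 5 exons) was listed at 0 in MSC library 1 and at 0.0057 and 0.00704 FPKM in the other two, 1 implied read each. NPCs held 0.301, 0.438 and 0.192 FPKM and IGF-1 NPCs 0.482, 0.324 and 0.382. The kinase was near 0 in every uninduced library and rested on 28 to 73 implied reads in each induced one. Its log2 fold changes were 1.90 (SE 0.30, limma adjusted p = 0.00277) and 2.21 (SE 0.27, adjusted p = 0.000301). Doublecortin itself (Dcx), the marker of young neurons in this family, stayed at 0.0146 to 0.0308 FPKM in the group means and was not tested. With 1 added in place of 0.1, the calls of Scn7a, Dclk3 and Ephb1 ended in both comparisons, at log2 fold changes of 0.24, 0.37 and 0.25 in NPCs and 0.35, 0.47 and 0.20 in IGF-1 NPCs.

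Uchl1 (ENSRNOG00000002343, chromosome 14, 42928247 to 42938965, minus strand, 9 exons) was abundant in MSCs, at 83.0, 78.8 and 76.4 FPKM, above 94.4% of the 13840 genes at 0.1 FPKM or more in that group. NPCs held 9.33, 11.5 and 18.5 FPKM and IGF-1 NPCs 15.9, 9.67 and 10.8. The highest induced library lay far below the lowest MSC library, and the hydrolase nevertheless stayed above 69.0% of genes in NPCs and 67.1% in IGF-1 NPCs. The fall was the best covered among the 9 genes, with an implied 3421 to 3975 reads in an MSC library and 375 to 842 in an induced one. Taken from the confidence bounds of each value alone, NPC libraries 1 and 3 had fewer, 291 and 563 reads. The log2 fold change was −2.72 (SE 0.25, limma adjusted p = 0.000311) in NPCs and −2.82 (SE 0.26, adjusted p = 6.21e-05) in IGF-1 NPCs.

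The NPC value of Uchl1 and its calls rest on how isoforms are counted. The means of MSCs (79.4 FPKM) and IGF-1 NPCs (12.1) were the same with annotated transcripts alone. In NPC libraries 1 and 3 the whole FPKM lay in an unannotated isoform of 8 exons that touched 8 of the 9 annotated exons, and in the 7 other libraries in the annotated transcript. With annotated transcripts alone the NPC mean fell from 13.1 to 3.84 FPKM, and the call ended in NPCs (log2 fold change −7.30, limma adjusted p = 0.07) and in IGF-1 NPCs (−2.72, adjusted p = 0.332), whose fit takes its spread from all 9 libraries. Adding intronic single-exon transcripts, of which Uchl1 had 1 at 76.7 FPKM in IGF-1 NPC library 3, also ended the call in IGF-1 NPCs (−2.36, limma adjusted p = 0.0692). Of 17 general neuronal markers only 2 besides Uchl1 could be matched by name, so most of that list was not looked at. Rbfox3 (NeuN) was listed at 0 in all 9 libraries and Gap43, a protein of growing axons, was at group means of 0.00617 to 0.0431 FPKM.

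S100b (ENSRNOG00000001295, chromosome 20, 15287748 to 15296457, minus strand, 3 exons) was the most abundant of the 9 in every group. It was at 92.5, 102 and 92.2 FPKM in MSCs, 80.9, 144 and 143 in NPCs and 147, 108 and 107 in IGF-1 NPCs. NPC libraries lay on both sides of the MSCs, while all 3 IGF-1 NPC libraries lay above them. In that group it exceeded 97.2% of genes at 0.1 FPKM or more. The difference passed in neither comparison, with log2 fold changes of 0.25 (95% interval −0.31 to 0.80, limma adjusted p = 0.448) and 0.24 (−0.27 to 0.75, adjusted p = 0.435). These intervals leave a rise or a small fall possible. With quantile normalisation the values were 0.68 and 0.59 (limma adjusted p = 0.0374 and 0.0386), still short of the fold threshold. The sign turned when intronic transcripts were added before scaling (−0.48 and −0.30), though none of these was counted to S100b.

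The other S100 genes that could be matched were lower or higher in induced cells. S100a11 fell from a mean of 918 FPKM in MSCs to 101 and 89 (log2 fold changes −3.31 and −3.45) and S100a6 from 4360 to 1320 and 1260 (−1.82 and −1.89), while S100a3 rose from 0.708 to 3.81 and 3.35 (2.19 and 2.06). S100a1, at 3.9 FPKM in MSCs, 13.3 in NPCs and 15.4 in IGF-1 NPCs, has too short a transcript to be tested. All of them had been named through the table of changed genes. Of 10 astrocyte genes 4 besides S100b could be matched by name. Gfap, the filament protein of astrocytes, was at group means of at most 0.0145 FPKM. Gja1, the gap junction protein connexin 43 that many stromal cells also carry, rose from 41.5 to 106 and 118 FPKM (1.28 and 1.44). Sox9, a factor of astrocytes and of cartilage, was at 4.45, 3.68 and 6.31 FPKM and did not pass (−0.39 and 0.35). Markers of the other cell types that make S100b gave mixed values. Of 9 chondrocyte genes 5 were matched, S100b included, and their sum was 399 to 501 FPKM in MSCs, 180 to 291 in NPCs and 230 to 269 in IGF-1 NPCs. Within it Col11a1 fell from 339 to 68.3 and 50.1 FPKM, and Prg4, the lubricant lubricin, was listed at 0 in MSCs and at means of 36.1 and 59.6 in the induced groups. Col11a1 had been named through the table of changed genes and Prg4 through the one sorted by gene ID. Of 7 adipocyte genes only 1 besides S100b was matched, the hormone Adipoq, at group means of at most 0.0105 FPKM. The part of such cells in the level of S100b was not tested.

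Mog (ENSRNOG00000000775, chromosome 20, 4044677 to 4054910, plus strand, 8 exons) was at 2.29, 2.99 and 2.25 FPKM in MSCs, 1.32, 2.18 and 2.4 in NPCs and 1.92, 1.39 and 1.12 in IGF-1 NPCs. The myelin gene was thus read in all 9 libraries, with an implied 73 to 231 reads in each. Of 16 genes on the oligodendrocyte and myelin list it was the only match by name, so no other could be set beside it. NPCs overlapped MSCs, and the 3 IGF-1 NPC libraries lay below every MSC library. The log2 fold changes were −0.43 (SE 0.27, limma adjusted p = 0.257) in NPCs and −0.83 (SE 0.28, adjusted p = 0.0398) in IGF-1 NPCs, and neither reached the fold threshold. The second was past it with quantile normalisation (−1.07), without IGF-1 NPC library 1 (−1.02) and with intronic transcripts added (−1.35), as was the first with the last of these (−1.12, limma adjusted p = 0.0481). None of the added transcripts was counted to Mog, so that setting reached it only through the scaling and the fit. In the scaling over 9 libraries the MSC size factors were then 0.590 to 0.722, against 0.875 to 1.01 without these transcripts.

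The Mog locus also carried transcripts of the other strand in every library. A single unannotated transcript of 1 exon per library reached over exons 6 and 7 into exon 8, or over exons 7 and 8 alone in MSC library 1, and shared 60 to 181 bases with the exons of Mog, 3.81 to 11.5% of its length. It was at 7.46, 4.38 and 3.25 FPKM in MSCs, 2.74, 3.95 and 3.51 in NPCs and 3.41, 2.26 and 2.54 in IGF-1 NPCs, above the FPKM of Mog in all 9. Transcripts of an annotated gene of the other strand (ENSRNOG00000022730) shared a further 87 bases with the last exon. The kit marks strand, but the sources used here leave out the strand setting of the assembly, and the part of these transcripts in the level of Mog was not tested. None of the 8 other genes had a transcript of the other strand that shared exonic bases.

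**Figure D3:**
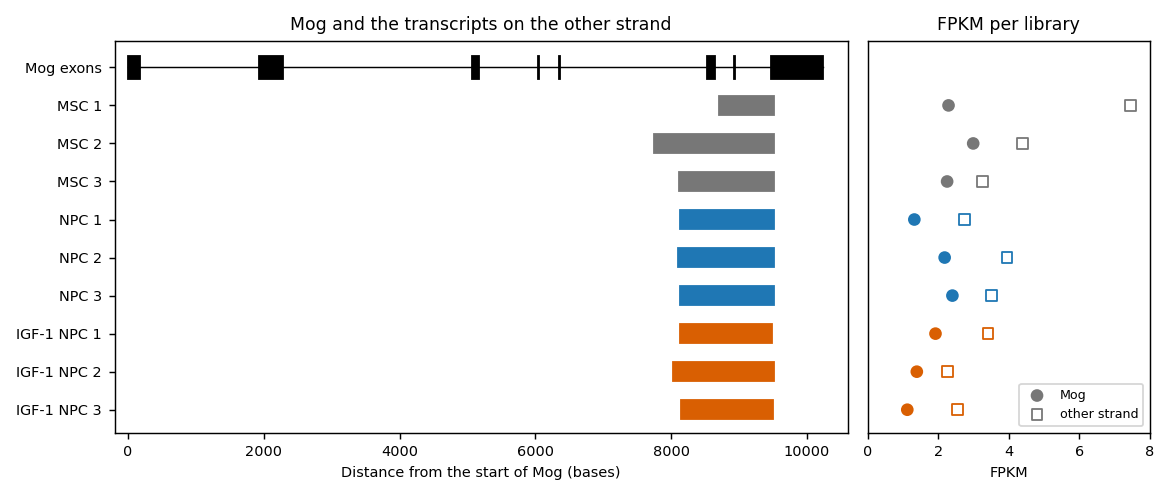
Left, exons of Mog (black) and the single-exon transcript of the other strand in each library, by distance from the start of Mog in bases. Right, FPKM of Mog (circles) and of the transcript of the other strand (squares) per library. The squares lie between 2.26 and 7.46 FPKM and the circles between 1.12 and 2.99, and every square lies to the right of its circle.

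Unannotated isoforms were also found for Scn7a, Ephb1 and S100b. NPC library 3 held most of them: 78.1% of the FPKM of Scn7a lay there in a 5-exon isoform, 30.4% of that of Ephb1 in a 7-exon isoform and 14.9% of that of S100b in a 3-exon isoform that touched 2 of the annotated exons. In IGF-1 NPC library 1 the whole FPKM of Scn7a lay in an isoform of 5109 bases that touched all 26 annotated exons, against 5115 bases for the annotated transcript. Counted with Uchl1 and Slc17a6, an unannotated isoform was present for 4 of the 7 members above 0 in NPC library 3, for 1 member in each of 3 other libraries and for none in 5 libraries. Over all genes tested, 40.0 to 48.4% of those above 0 in a library had one. With annotated transcripts alone the mean of Scn7a in NPCs was 0.15 FPKM in place of 0.192, and its call ended in IGF-1 NPCs (1.34, limma adjusted p = 0.194). In NPCs it then fell under the FPKM filter, and kept in the fit it was not called (1.18, limma adjusted p = 0.142).

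**Figure D4:**
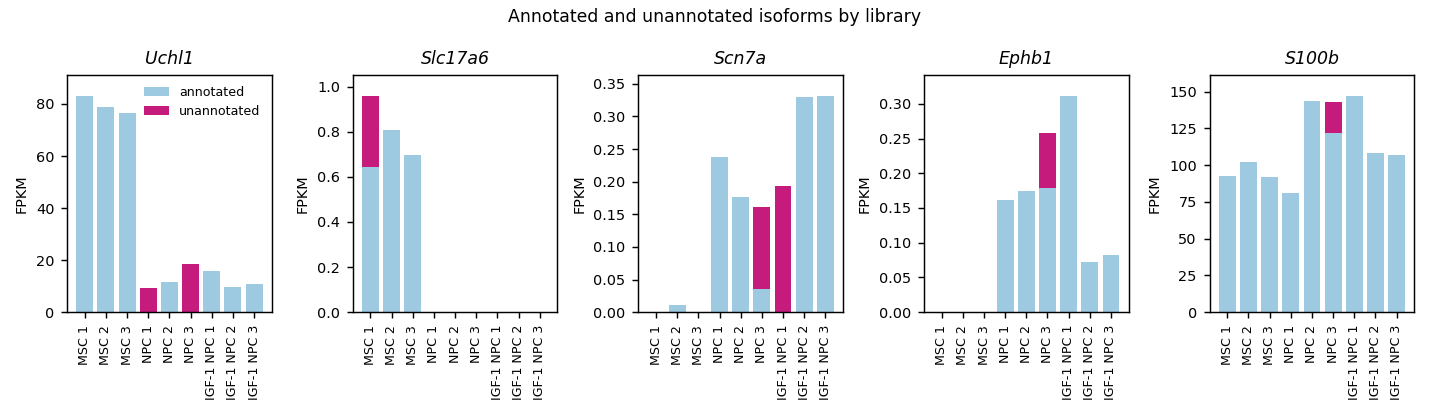
FPKM of annotated (blue) and unannotated (magenta) isoforms in each library, for the 5 members that had an unannotated isoform. Bars are stacked and start at 0. Uchl1 in NPC libraries 1 and 3 and Scn7a in IGF-1 NPC library 1 are wholly unannotated.

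Adding IGF-1 to EGF and bFGF was not seen to move any of the 9 genes beyond the spread between libraries. For each of them the libraries of the 2 induced groups overlapped, while 9.60% of 14228 genes did not (5.71% higher and 3.89% lower). The 95% interval of the log2 difference was −0.70 to 0.49 for Uchl1, −0.52 to 0.51 for S100b and −1.02 to 0.22 for Mog. It was −0.20 to 0.95 for Scn7a, −0.32 to 0.91 for Dclk3 and −1.14 to 0.46 for Ephb1. For Negr1, with 1 library above 0, it was −0.62 to 1.48, and for Syt1 −0.75 to 0.43. A p that misses the threshold does not show that the groups are alike. All 9 adjusted p-values were 1 with limma.

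The order of the levels was the same at the top in every group, S100b first and Uchl1 second, though in MSCs the 2 lay near each other (means 95.4 and 79.4 FPKM) and in NPCs far apart (123 and 13.1). In MSCs Mog (2.51 ± 0.416 FPKM, SD, n = 3) and Negr1 (2.23 ± 1.04) followed and did not differ beyond their spread, then Slc17a6 (0.822 ± 0.131) and Syt1 (0.138 ± 0.00723). In NPCs Mog (1.97 ± 0.571) came next, then Dclk3 (0.31 ± 0.124), Ephb1 (0.198 ± 0.0519) and Scn7a (0.192 ± 0.0398), of which neighbours overlapped. In IGF-1 NPCs Mog (1.48 ± 0.406) was followed by Dclk3 (0.396 ± 0.0799), Scn7a (0.285 ± 0.0795) and Ephb1 (0.155 ± 0.136). Scn7a, Dclk3 and Ephb1 lay above only 4.03 to 12.0% of the genes at 0.1 FPKM or more in the induced groups, whose median was 6.72 FPKM in NPCs and 6.56 in IGF-1 NPCs.

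Set beside the rest of the neuronal and glial genes, the 9 are a small part. The 10 lists of such genes reported here hold 143 further symbols, of which 25 could be matched by name. Of these 25, 3 were listed at 0 in all 9 libraries (Ncam2, Rbfox3 and Fabp7) and 10 were under 0.1 FPKM in every group mean. In NPCs against MSCs 14 could be tested, 4 rose and 6 fell (71.4%, against 21.6% of all genes), with a median log2 fold change of −0.02 against 0.03 over all genes. Of these 14, 10 had been named through the table of changed genes and 80.0% of them were called, so nothing is read from the share, and their median was −1.18 against 0.99 for the other 4. Of these 4, named through the table sorted by gene ID, Gja1 and Egr2 rose and Nlgn3 and Sox9 did not pass. Egr2, a factor of myelinating Schwann cells that growth factors also induce in other cells, was at 2.61 FPKM in MSCs, 17.0 in NPCs and 10.9 in IGF-1 NPCs (log2 fold changes 2.42 and 1.97). In IGF-1 NPCs against MSCs 5 of the 14 rose and 5 fell (71.4%, against 21.4% of all genes), with a median of 0.55 against 0.05 over all genes, −1.12 for the 10 and 1.1 for the 4, and against NPCs none was called by limma, with a median of 0.13.

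**Figure D5:**
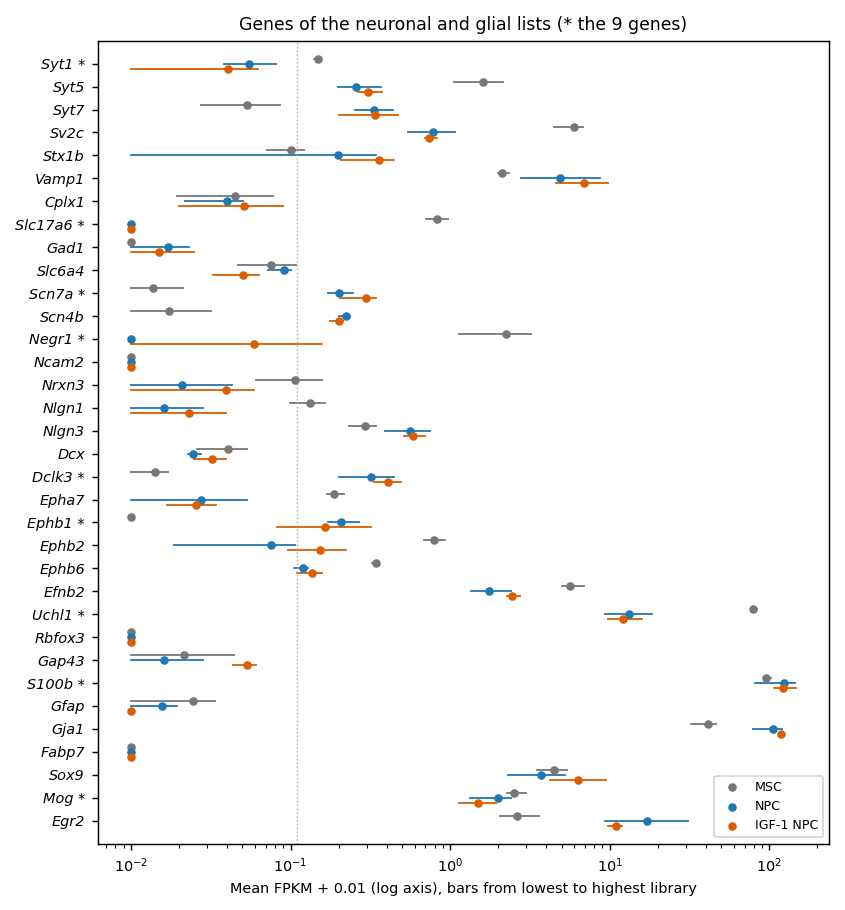
Mean FPKM + 0.01 (log axis) in each group for the 9 genes (asterisks) and the 25 other genes of the lists that could be matched, with bars from the lowest to the highest library. The dotted line marks 0.1 FPKM, and points at the left edge are listed at 0. S100b and Gja1 in all groups and Uchl1 in MSCs are the only means above the 17.0 FPKM of Egr2 in NPCs.

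Markers of blood and vessel cells, which marrow also holds, were uneven. Of 8 macrophage genes 3 were matched, and their sum was 0.231 to 0.502 FPKM in MSCs, 9.54 to 11.4 in NPCs and 8.97 to 14.4 in IGF-1 NPCs. Nearly all of it was Cd68, a lysosomal protein that other cells also hold, while the defining leukocyte gene Ptprc was at group means of 0 to 0.00474 FPKM and Aif1 of 0 to 0.0134. The endothelial gene Vwf was at 0.0177, 0.345 and 0.141 FPKM. Cd68 and Vwf had been named through the table of changed genes. The part of these cells in the levels of the 9 genes was not tested.

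Among 1309 named genes with a mean of at least 1 FPKM, those most like a member in their pattern over the 9 libraries were taken by the root-mean-square distance of centred log2 values. These candidates were named in part through the table of changed genes, so they do not stand for all genes. For Uchl1 they were Pdlim1 (0.155; means of 196 FPKM in MSCs, 30.2 in NPCs and 29.2 in IGF-1 NPCs), Acat2 (0.244) and Tbc1d9 (0.249). For S100b they were Plaat1 (0.142), Cdk2ap1 (0.175) and Pop5 (0.18), and for Mog Zdhhc15 (0.197), Ehhadh (0.211) and Lrrc20 (0.227). The other 6 genes lay under a mean of 1 FPKM over the 9 libraries and were not ranked.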

How the data were processed

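Total RNA (300 ng per library) was made into libraries with the TruSeq stranded mRNA kit and read single-end on a NextSeq 500. Per the labels, the deposited files are transcript assemblies, one per library, in which the authors give each transcript an FPKM value and its 95% confidence bounds in the attribute text. The numeric column of the deposited files holds the assembler's score, a whole number that was not used. The submitters' processing notes list, with no order, TopHat, Bowtie2, Cuffdiff, Cufflinks, bcl2fastq and CASAVA 1.8, whereas the methods of the study describe another route (BBDuk, STAR, RSEM and DESeq2) that does not give FPKM of this kind. The genome build of the coordinates is not stated for these files.

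The FPKM of all isoforms of a gene were summed, single-exon transcripts lying within introns being left out, and scaled by median-of-ratios size factors (0.875 to 1.06). Genes with at least 0.1 FPKM in 3 libraries were tested if their annotated transcript had 300 bases or more, on log2(FPKM + 0.1) with limma 3.58.1 (R 4.3.3, eBayes with trend and robust), with Benjamini-Hochberg adjustment over all genes. NPCs against MSCs was fitted on their 6 libraries and the comparisons of IGF-1 NPCs on all 9. A count test was not possible: taking the depth from the confidence bounds, only 44.6 to 48.3% of values came within 0.02 of a whole read. Implied reads are FPKM times length times that depth, and intervals and floors cover counting error only.

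Symbols came from tables of the study, which give a symbol beside the gene ID for 2452 of the genes in the files, and a gene without one is not analysed here by name. Some genes of the lists are not reported here and were left out of the counts. The 9 genes, the gene lists and the tests were chosen with earlier results of these data known. Beside the 9 genes, up to 4 genes of a list were named, called ones first by size of change and then by mean FPKM, together with the 3 genes most like a member. Promoters came from RefSeq (GRCr8), which held 8 of the 9 genes. Tested on simulated data, the procedure for NPCs against MSCs recovered 61 of 99 genes changed by 1.5 and 91 of 98 changed by 3 on the log2 scale, and called 10 of 13823 unchanged genes. The simulation used normal noise on the log2 scale and changed few genes, against 21.6% called in the data. Its rates were not split by level, so they do not describe members near 0.1 FPKM or listed at 0 in a group. The pseudocount, filter, scaling, moderation, isoform rule, fitted libraries, replicate block and each library were varied in turn, with the tested genes held fixed where a member had dropped out (added after seeing the data).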

Additional observations from a re-analysis of the deposited data

How the results depend on the processing

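Of 463 values of the 9 genes under other settings, 431 kept their direction and their side of the threshold, 16 fell below it, 9 rose past it and 7 changed sign, none of them called. Some of the 463 could not move or hardly could, so the share does not measure how firm a call is. Slc17a6 was listed at 0 in both induced groups, and all its 19 values between them were 0. Leaving out an NPC library reaches IGF-1 NPCs against MSCs only through the filter, the scaling and the spread. A further 50 values were not given, since the gene fell under the filter: 15 with a minimum of 1 FPKM, and the rest mainly for Scn7a, Dclk3 and Ephb1 without any 1 NPC library and Slc17a6, Syt1 and Negr1 without any 1 MSC library. With the genes of the full filter kept, an alternative added after seeing the data, 35 of them could be fitted and 34 kept their direction and side, the exception being Scn7a in NPCs with annotated transcripts alone (1.18). With 1 added to FPKM, called genes fell from 2957 to 1715 (816 higher, 899 lower) in NPCs and from 3044 to 1758 in IGF-1 NPCs against MSCs, and with annotated transcripts alone to 1191 (1152 with the genes kept) and 1499; without 1 library they ranged from 2255 to 2860 (2479 to 3116 with the genes kept) and from 2717 to 3063. Between IGF-1 NPCs and NPCs the 3 called genes became 5 without a filter, 5 without a trend, 19 with annotated transcripts alone and 23 with intronic transcripts, and 1 to 10 without 1 library (10 without IGF-1 NPC library 1, 1 without IGF-1 NPC library 3). S100b changed sign with intronic transcripts (−0.48 and −0.30). That setting moved the median over all genes the other way, from 0.03 to 0.18 in NPCs against MSCs. In the scaling over 9 libraries it put the MSC size factors at 0.590 to 0.722. Between IGF-1 NPCs and NPCs, Uchl1 went from −0.10 to 4.59 with annotated transcripts alone and 1.08 with intronic ones, and from −0.31 to 0.19 without 1 library, and Syt1 from −0.28 to 0.02. For Uchl1, NPC libraries 1 and 3 have no annotated isoform to count, and the added intronic transcript lay in IGF-1 NPC library 3. The cause of the other shifts was not tested. A replicate block gave 2861, 3002 and 1 called genes and changed no call of the 9. Per the study's methods the NPCs were made from the MSCs of the same 3 rats, but the labels do not say which libraries share a rat. Same-numbered libraries of NPCs and MSCs correlated at 0.041, 0.115 and 0.017, and differently numbered ones at −0.104 to 0.06. Values this low do not settle whether the numbers pair the libraries, and the main fits did not pair them. At the implied depth, Syt1 in all groups and Negr1 in IGF-1 NPCs rest on at most 12 reads a library.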
